A study of Mus musculus with 8 samples.

Results

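The BCL2 family of survival and death genes was described in activated mouse CD8 T cells with or without a retrovirus that delivers a form of the nuclear protein TOX. The members were 10 genes found by their symbols among 31815 gene rows: Bcl2, Bcl2l1, Mcl1, Bcl2l11, Bcl2a1b, Bcl2a1d, Bak1, Bad, Bid and Pmaip1. Earlier results of these data were known when they were chosen. All 10 passed the filter on low counts, which left 13329 tested genes. All groups came from naive CD8 splenocytes of OT-I mice, line C57BL/6-Tg(TcraTcrb)1100Mjb/J, whose transgenic T cell receptor sees an ovalbumin peptide. The cells were cultured with that peptide for 3 days, received the vector at 24 h and were sorted on day 5. The TOXFL-positive group was the brightest 20% of the GFP-positive cells given the TOXFL vector, and the TOXFL-negative group was the GFP-negative cells of that label. The TOXdeltaN-positive and TOXdeltaN-negative groups were sorted in the same way with the TOXdeltaN vector. GFP was translated from the same vector RNA as TOX, so green cells held the vector, and the negative cells had met it in culture. A vector with GFP alone was not analysed here, so the TOX protein, the vector and the sort on GFP cannot be told apart. Each of the 4 groups had 2 libraries, and the labels do not say whether these came from separate animals or cultures. The p-values thus reflect no more than how far these libraries lie apart, and that may be technical.

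BCL2 family proteins meet at the outer membrane of mitochondria. The effectors BAX and BAK open that membrane and so release cytochrome c, which starts the caspases. BCL2, BCL-XL, MCL1 and A1 hold the effectors in check, and BH3-only proteins such as BIM, BAD, BID and NOXA set the effectors free or switch them on. In CD8 T cells BIM is best known for removing activated cells at the end of a response, and BCL2 and MCL1 for keeping T cells alive.

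The labels and the cells were checked first. Tox stood between 82.9 and 126 CPM (counts scaled to the size of the library) in the 4 GFP-positive libraries, against 21.8 to 34.4 CPM in the 4 GFP-negative libraries, so no library went against the GFP side of its label. Gene counts of Tox do not tell the TOXFL vector from the TOXdeltaN vector, so that side of the labels was not checked. Total counts per library lay between 25059112 and 31240067. The summed level of 6 CD8 T cell markers lay between 3194 and 3695 CPM. Of these, Cd8b1 stood at 493 to 624 CPM in positive and 657 to 788 CPM in negative libraries. Cd2 was at 157 to 183.99 against 184.6 to 200.3 CPM, and Cd3e at 706 to 777.2 against 777.7 to 794.9 CPM. Cd8a went the other way, at 757 to 787 against 697 to 751 CPM, and Cd3d and Cd3g overlapped. Over all tested genes 16.3% did not overlap in this way. Of the B cell markers, Cd79b stood at 13.1 to 15.7 CPM in positive and 15.99 to 16.8 CPM in negative libraries, and Pax5 was at 0 in all 8. Myeloid markers summed to at most 2.54 CPM, with Adgre1 at 0 throughout. The sums of the CD4 T cell, NK cell and erythroid markers were at most 5.44, 8.50 and 1.98 CPM. The 13 mitochondrially encoded genes, a sign of RNA quality, summed to 7069 and 4414 CPM in TOXFL-positive replicates 1 and 2, against 8297 and 8375 CPM in TOXFL-negative libraries. They summed to 7690 and 7988 CPM in TOXdeltaN-positive libraries, against 9192 and 8972 CPM in TOXdeltaN-negative libraries. The part of these differences in the results below was not tested.

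Per kilobase of exon, the transcript of the survival protein MCL1 was the most abundant of the 10, with a median of 117 CPM per kilobase over the 8 libraries and a range of 105 to 125. Bcl2 followed at a median of 70.7 CPM per kilobase (60.7 to 97.7), below Mcl1 in every library. Bcl2a1b had a median of 42.3 CPM per kilobase (30.8 to 69.3), Bcl2l11 40.2 (32.0 to 47.4) and Bcl2a1d 27.8 (14.3 to 51.3). The ranges of these last 3 overlapped, so their order was not fixed. Bid, Pmaip1, Bcl2l1 and Bad stood close together, with medians of 13.9, 13.5, 12.9 and 11.7 CPM per kilobase and overlapping ranges. Bak1 was the least abundant, at a median of 2.44 CPM per kilobase (0.652 to 3.11). Exon lengths are unions over all transcripts of a gene, so a gene with long rarely used exons reads lower on this scale. The counts are per gene, so the long and short forms of BCL-X and MCL1 and the isoforms of BIM were not told apart.

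**Figure D1:**
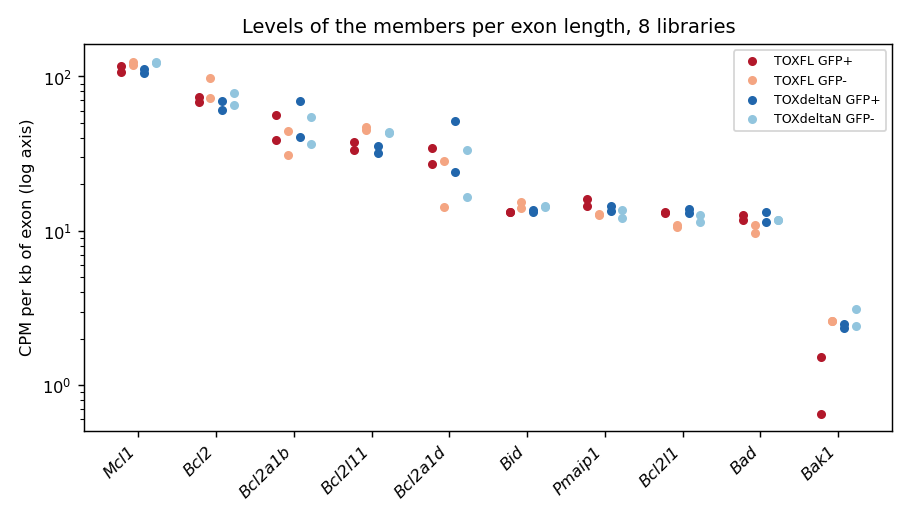
Level of each member in CPM per kilobase of exon, on a log axis, with 1 point for each of the 8 libraries, coloured by group and genes ordered by their median. Mcl1 leads at a median of 117 and Bak1 is lowest at 2.44.

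The first question was how each member differed between GFP-positive and GFP-negative cells. Bcl2l11, the gene of the death protein BIM, was the member with the clearest difference, lower in positive cells with both constructs. Bak1, the gene of the effector BAK, was lower with TOXFL in the fit with the replicate number. Averaged over the constructs in that fit, Bcl2l1 and both Bcl2a1 copies, which encode survival proteins, were higher, against 6.04% of all genes. The survival genes Mcl1 and Bcl2 did not pass the threshold there, and their means in positive libraries changed by -10.1% and -13.1%. Bax, the gene of the effector BAX and not a member, was higher in that fit. The results for Bak1, Bcl2l1 and Bcl2a1b were lost in most fits with 1 library left out. For Bcl2l11, the averaged call without the replicate number was also lost in most of them, and the averaged call with it held in most. Its calls with single constructs, made only with the replicate number, were lost in most. In bulk RNA, fewer cells of a type and less RNA per cell cannot be told apart. Values are log2 fold changes from edgeR's quasi-likelihood test, and a gene is described as called where its Benjamini-Hochberg adjusted p over all 13329 genes was under 0.05. All 4 groups shared 1 estimate of the spread. The chi-square per degree of freedom between the libraries of a group measures spread beyond counting noise. It was 39.7 for TOXdeltaN-positive, 19.5 for TOXFL-positive, 11.4 for TOXFL-negative and 11.5 for TOXdeltaN-negative. Leaving out a TOXdeltaN-positive library takes that group out of the estimate, and its part in calls that held there was not tested. Since every group holds a replicate 1 and a replicate 2 whose libraries deviated together, the model was also run with that number as a blocking term, and this is the blocked fit.

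With TOXFL, edgeR called 0 of the 10 members without the block, against 0.045% of all tested genes. At an unadjusted p under 0.05 it had 4 of 10, against 13.4% of all genes. DESeq2 called 2 members, against 2.39%, and limma-voom 1, against 1.46%. The blocked fit called 2 members, both lower, against 3.48% of all genes called and 1.97% called lower. With TOXdeltaN, edgeR called 0 members without the block, against 0.03% of all genes. There, 1 had an unadjusted p under 0.05, against 12.2% of all genes, and neither DESeq2 (0.9% of all genes) nor limma-voom (0%) called any. The blocked fit called 1 member, against 1.65%. The average of both construct effects had 1 member called, against 2.42% of all genes, and 5 at an unadjusted p under 0.05, against 21.9%. DESeq2 called 2 there, against 7.98%, and limma-voom 1, against 3.05%. The blocked fit called 5, against 12.7%. Of these, 3 were higher, against 6.04% of all genes, and 2 lower, against 6.69%. The median log2 fold change of the 10 members in the average was 0.02, against -0.00052 over all tested genes, and 5 members had a positive and 5 a negative value.

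**Figure D2:**
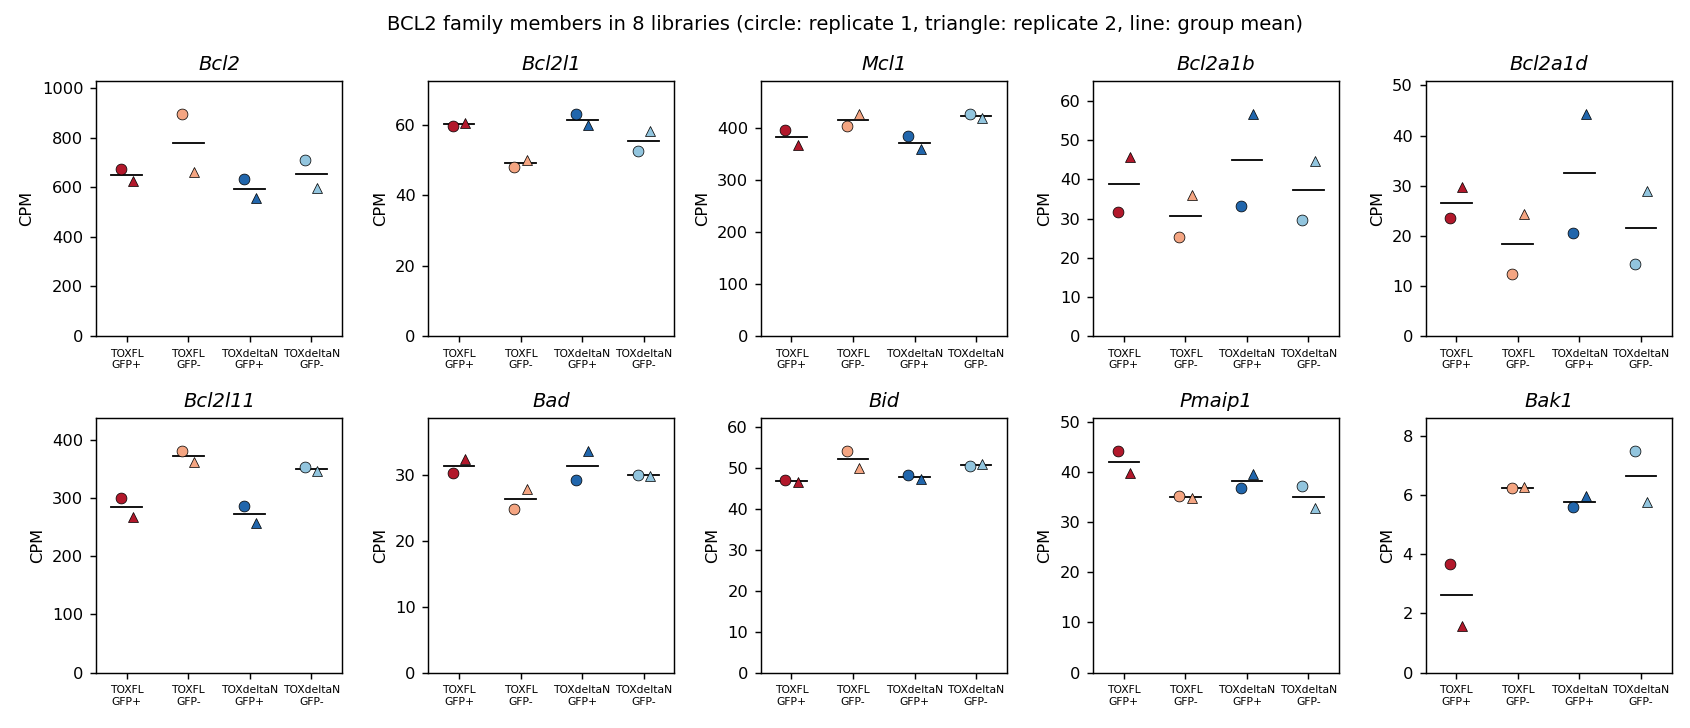
CPM of the 10 members in the 8 libraries, with 1 panel per gene and an axis from 0; circles are replicate 1, triangles replicate 2, and a line marks the mean of each group. Bcl2l11 lies between 257 and 300.3 CPM in all 4 GFP-positive libraries and between 345 and 380.4 CPM in the 4 GFP-negative ones.

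**Figure D3:**
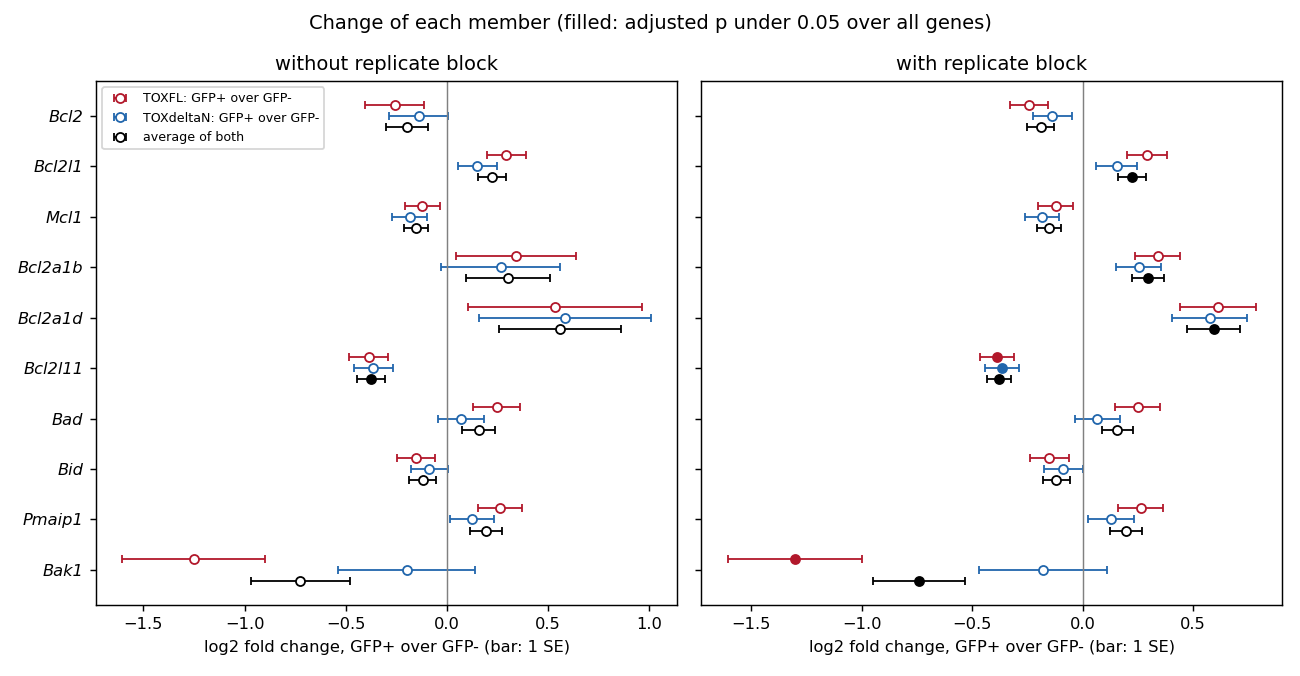
Log2 fold change of each member, GFP-positive over GFP-negative, with TOXFL (red), TOXdeltaN (blue) and averaged (black), without the replicate block (left) and with it (right); bars are 1 standard error and filled points have an adjusted p under 0.05. Bcl2l11 is filled for the average on the left and in all 3 comparisons on the right.

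Among the survival genes, Bcl2 itself (ENSMUSG00000057329.7, GRCm38 chromosome 1, 106538178 to 106714274, minus strand) was not called. It stood at 675 and 627 CPM in TOXFL-positive libraries, against 895 and 662 CPM in TOXFL-negative libraries. TOXdeltaN-positive cells had 633 and 556 CPM, against 711 and 598 CPM in TOXdeltaN-negative cells. The groups overlapped for both constructs, and replicate 2 lay below replicate 1 in all 4 groups, as for 14% of tested genes. The log2 fold change was -0.26 with TOXFL (SE 0.146, adjusted p = 0.491) and -0.14 with TOXdeltaN (SE 0.146, adjusted p = 0.708). In the average the blocked fit had -0.19 (adjusted p = 0.0691). D630008O14Rik overlaps Bcl2 on the opposite strand, and the library chemistry does not mark strand.

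Bcl2l1, whose main product is the survival protein BCL-XL (ENSMUSG00000007659.18, chromosome 2, 152780668 to 152831728, minus strand), was higher in positive cells. TOXFL-positive libraries held 59.8 and 60.7 CPM, against 48.2 and 50.2 CPM in TOXFL-negative libraries. TOXdeltaN-positive libraries held 63.1 and 60.0 CPM, against 52.5 and 58.3 CPM in TOXdeltaN-negative libraries. All 4 positive libraries lay above all 4 negative ones, and the gap was narrow with TOXdeltaN. The log2 fold change was 0.29 with TOXFL (SE 0.0962, adjusted p = 0.249), and TOXdeltaN gave 0.15 (SE 0.096, adjusted p = 0.531), neither called. In the average Bcl2l1 was not called without the block (log2 0.22, SE 0.068, adjusted p = 0.109) and rose in the blocked fit (log2 0.22, SE 0.0643, adjusted p = 0.0485). That call lay close to the threshold and held in 2 of 8 omissions of a library, those of TOXdeltaN-positive replicates 1 and 2. In the other 6 omissions its adjusted p was 0.12 to 0.244.

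Mcl1, which encodes a short-lived survival protein that T cells need throughout life (ENSMUSG00000038612.16, chromosome 3, 95658788 to 95663176, plus strand), was not called, though it lay lower in every positive library. Its level was 397 and 367 CPM in TOXFL-positive libraries, against 405 and 427 CPM in TOXFL-negative libraries. With TOXdeltaN it was 385 and 360.0 CPM in positive libraries, against 427 and 419 CPM in negative libraries. All 4 positive libraries lay below all 4 negative ones, by a narrow margin with TOXFL. The average log2 fold change was -0.15 (SE 0.0612, adjusted p = 0.188), and -0.15 in the blocked fit (SE 0.0554, adjusted p = 0.0985), so Mcl1 was not called in either. It was called in the blocked fit after a correction for gene length (log2 -0.19, adjusted p = 0.0452), where 12.1% of all genes were called.

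The Bcl2a1 genes encode A1, a survival protein that antigen receptor and NF-kappaB signals induce in lymphocytes, and the mouse has several near-identical copies. Bcl2a1b (ENSMUSG00000089929.1, chromosome 9, 89199209 to 89207827, plus strand) and Bcl2a1d (ENSMUSG00000099974.1, chromosome 9, 88723285 to 88731914, minus strand) have coding sequences of 519 bases. These differ at 6 bases, with 98.8% identity and a longest identical run of 217 bases. The first 120 coding bases of each are shown because they carry 3 of the 6 differences, in capitals, read from the GENCODE M21 transcripts, and they show how few bases separate reads of one copy from the other.
Bcl2a1b: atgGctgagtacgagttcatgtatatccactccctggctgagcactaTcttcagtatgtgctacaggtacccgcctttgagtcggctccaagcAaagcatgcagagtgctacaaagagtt
Bcl2a1d: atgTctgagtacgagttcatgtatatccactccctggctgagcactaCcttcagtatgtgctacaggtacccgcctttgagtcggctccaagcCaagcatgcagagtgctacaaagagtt
A read that covers no base at which the copies differ can be shared out only by estimate, so the split of counts between the copies is uncertain and their sum is the safer value. Bcl2a1a, a further copy, had 0 to 3 counts per library and was not tested. Gm29094 on the same strand overlaps Bcl2a1b, and Gm10634 on the opposite strand overlaps Bcl2a1d.

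Bcl2a1b stood at 31.7 and 45.7 CPM in TOXFL-positive libraries, against 25.2 and 35.99 CPM in TOXFL-negative libraries. With TOXdeltaN it stood at 33.2 and 56.6 CPM in positive libraries, against 29.7 and 44.8 CPM in negative libraries. In each group replicate 2 was well above replicate 1, and positive and negative libraries overlapped. Bcl2a1d behaved the same way, with 23.5 and 29.7 CPM in TOXFL-positive libraries, against 12.3 and 24.4 CPM in TOXFL-negative libraries. It had 20.6 and 44.2 CPM in TOXdeltaN-positive libraries, against 14.3 and 28.9 CPM in TOXdeltaN-negative libraries. Within each replicate number, the positive library was above the negative one for both copies and both constructs. The share of all tested genes that do so was not counted, and the copies share reads, so they are not separate observations. Replicate 2 lay above replicate 1 in all 4 groups for both copies, as for 13% of tested genes.

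**Figure D4:**
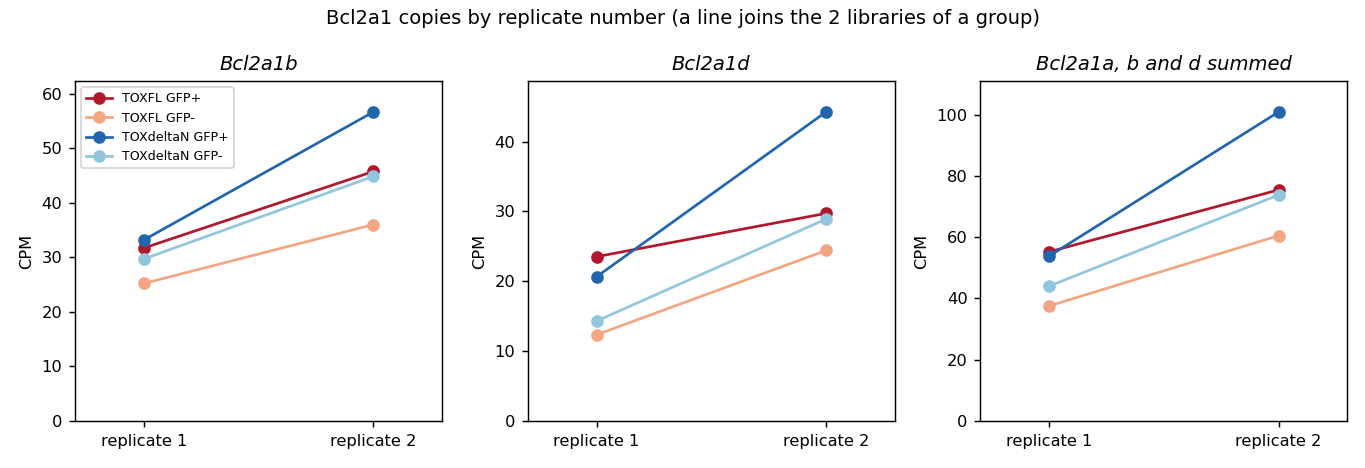
CPM of Bcl2a1b, Bcl2a1d and the sum of Bcl2a1a, Bcl2a1b and Bcl2a1d, by replicate number, with 1 line per group joining its 2 libraries. Every line runs upward to replicate 2, and each positive line lies above the negative line of its construct.

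Without the block neither copy was called in the average (Bcl2a1b log2 0.30, SE 0.209, adjusted p = 0.423, and Bcl2a1d log2 0.56, SE 0.302, adjusted p = 0.312). In the blocked fit Bcl2a1b rose by a log2 of 0.30 (SE 0.0715, adjusted p = 0.0264) and Bcl2a1d by 0.59 (SE 0.12, adjusted p = 0.0128). Both copies are short, with 0.817 and 0.863 kilobases of exon. The shortest genes, up to 2.53 kilobases, had a median log2 fold change of 0.08 in the unblocked average. The call of Bcl2a1b held in 2 of 8 omissions of a library, TOXdeltaN-positive replicates 1 and 2, and the others reached an adjusted p of 0.151. That of Bcl2a1d held in 5 of 8. It was lost without TOXFL-negative replicate 1 (adjusted p = 0.0638), TOXdeltaN-negative replicate 1 (0.0801) and TOXdeltaN-negative replicate 2 (0.0607). The sum of the copies was 55.2 and 75.4 CPM in TOXFL-positive libraries, against 37.5 and 60.5 CPM in TOXFL-negative libraries. It was 53.8 and 100.9 CPM in TOXdeltaN-positive libraries, against 44.0 and 73.8 CPM in TOXdeltaN-negative libraries. The summed copies rose in the average of the blocked fit (log2 0.41, SE 0.0784, adjusted p = 0.0103). With single constructs the sum was not called in either fit, with blocked adjusted p = 0.0624 with TOXFL and 0.114 with TOXdeltaN. Between replicate 2 and replicate 1 the sum differed by a log2 of 0.70 (SE 0.0786, adjusted p = 0.00213). Of the 10 members, 2 were called in that comparison, Bcl2a1b and Bcl2a1d, both higher, against 3.02% of all genes called and 1.26% called higher. The labels do not say what the replicate number marks.

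Bak1 encodes the effector BAK (ENSMUSG00000057789.14, chromosome 17, 27019810 to 27029009, minus strand). It stood at 3.69 and 1.57 CPM in TOXFL-positive libraries, against 6.23 and 6.27 CPM in TOXFL-negative libraries. In TOXdeltaN-positive libraries it stood at 5.6 and 5.96 CPM, against 7.49 and 5.77 CPM in TOXdeltaN-negative libraries. With TOXFL the groups did not overlap, and replicate 2 was the lowest of the 8 libraries. With TOXdeltaN they overlapped. The log2 fold change with TOXFL was -1.25 without the block (SE 0.353, adjusted p = 0.188), not called, and -1.30 in the blocked fit (SE 0.305, adjusted p = 0.0484), in which Bak1 fell. With TOXdeltaN it was -0.20 (SE 0.339, adjusted p = 0.827). The TOXFL result leaned on TOXFL-positive replicate 2, the library with the lowest mitochondrially encoded RNA, whose part in the result was not tested. Without it the blocked log2 fold change was -0.81 (adjusted p = 0.251). The blocked call was also lost without either TOXFL-negative library (adjusted p = 0.159 and 0.288) or either TOXdeltaN-negative library (0.104 and 0.103). Averaged over the constructs, Bak1 had a log2 fold change of -0.72 (adjusted p = 0.133), and -0.74 in the blocked fit (adjusted p = 0.0451). The averaged blocked call held in 2 of 8 omissions, those of TOXFL-positive replicate 1 and TOXdeltaN-positive replicate 2, while the others reached an adjusted p of 0.181. Ggnbp1 overlaps Bak1 on the opposite strand, and at under 8 CPM Bak1 is the member with the fewest counts behind its value.

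The other effector, BAX, lies outside the 10 members but belongs to the same step. Bax stood at 208 and 223 CPM in TOXFL-positive libraries, against 174 and 176 CPM in TOXFL-negative libraries. With TOXdeltaN it stood at 212 and 276 CPM in positive libraries, against 175 and 180 CPM in negative libraries. All 4 positive libraries lay above all 4 negative ones, the opposite direction to Bak1 with TOXFL. In the average the log2 fold change was 0.38 (SE 0.0864, adjusted p = 0.0555), not called without the block, and 0.38 in the blocked fit (SE 0.0706, adjusted p = 0.00923), in which Bax rose. The blocked call was lost without TOXFL-negative replicate 2 (adjusted p = 0.0739), TOXdeltaN-negative replicate 1 (0.0522) and TOXdeltaN-negative replicate 2 (0.102). Bax has 1.58 kilobases of exon, and the shortest genes, up to 2.53 kilobases, had a median log2 fold change of 0.08 in the unblocked average. Gm45808 overlaps Bax on the same strand.

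Bcl2l11 encodes BIM, the BH3-only protein that binds all the survival proteins and can switch on the effectors (ENSMUSG00000027381.16, chromosome 2, 128126038 to 128162547, plus strand). It stood at 300.3 and 267 CPM in TOXFL-positive libraries, against 380.4 and 362 CPM in TOXFL-negative libraries. The TOXdeltaN-positive libraries held 287 and 257 CPM, against 353 and 345 CPM in TOXdeltaN-negative libraries. All 4 positive libraries lay below all 4 negative ones, with the highest positive library well short of the lowest negative one. The mean was 278 ± 19.6 CPM in positive and 360.2 ± 15.02 CPM in negative libraries (SD, n = 4 each), so it fell by 22.9%. The log2 fold change was -0.39 with TOXFL (SE 0.0968, adjusted p = 0.155) and -0.36 with TOXdeltaN (SE 0.0968, adjusted p = 0.282), not called without the block. Both were called in the blocked fit (TOXFL log2 -0.39, adjusted p = 0.0269, TOXdeltaN log2 -0.37, adjusted p = 0.0489). With the length correction in the blocked fit the TOXdeltaN call was lost (log2 -0.28, adjusted p = 0.0747). The average of the constructs was -0.38 (SE 0.0685, adjusted p = 0.0292), and Bcl2l11 was the single member called there, against 1.08% of all genes called lower. The blocked average was -0.38 (SE 0.0545, adjusted p = 0.00306).

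Leaving out 1 library at a time kept the direction of Bcl2l11 in the average, from -0.42 to -0.34, but not always the call. Without the block it was called in 3 of 8 omissions, those of TOXFL-positive replicate 1 and TOXdeltaN-positive replicates 1 and 2. It was lost without TOXFL-positive replicate 2 (adjusted p = 0.125), TOXFL-negative replicates 1 and 2 (0.162 and 0.0767) and TOXdeltaN-negative replicates 1 and 2 (0.17 and 0.102). In the blocked average it was called in 7 of 8 and had an adjusted p of 0.0505 without TOXdeltaN-negative replicate 2. The blocked call of TOXFL alone held only in the omissions of TOXdeltaN-positive replicates 1 and 2, and that of TOXdeltaN alone in the same omissions. For TOXFL the other omissions gave adjusted p from 0.0939 to 0.263, and for TOXdeltaN from 0.0636 to 0.59. Long genes had lower values in positive cells as a group. The median log2 fold change in the average was 0.08 among the shortest genes, up to 2.53 kilobases of exon, and -0.10 among the longest, from 6.49 kilobases, and Bcl2l11 has 8.03 kilobases. After a correction for length its average log2 fold change was -0.31 (adjusted p = 0.0279), where 2.72% of all genes were called.

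The promoter window of Bcl2l11 is shown because FOXO factors are known to drive this gene, and Foxo3 and Foxo1 are among the pathway genes below. The window covers the bases around the start of a transcript, GRCm38.p6 chr2:128125788-128126087, plus strand, from RefSeq. Capitals mark the only match in it to the FOXO motif GTAAACA, searched on both strands, 227 bases before the start.
Bcl2l11 window 1: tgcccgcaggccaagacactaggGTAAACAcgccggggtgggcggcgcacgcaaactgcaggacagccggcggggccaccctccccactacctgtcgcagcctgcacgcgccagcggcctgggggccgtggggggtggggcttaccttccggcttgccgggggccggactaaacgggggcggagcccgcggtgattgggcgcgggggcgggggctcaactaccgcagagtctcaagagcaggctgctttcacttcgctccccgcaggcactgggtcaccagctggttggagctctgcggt
A second RefSeq start of Bcl2l11 had no match in its window, and neither had the windows of Bcl2, Bcl2l1, Mcl1, Bcl2a1b, Bcl2a1d, Bak1, Bad, Bid, Bax or Bmf. Of 32851 windows of this length, 1199 (3.65%) held the motif. A match describes letters and shows no binding.

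The other BH3-only members were not called, with or without the block. Bid, which encodes a protein that links death receptors to mitochondria (ENSMUSG00000004446.12, chromosome 6, 120891930 to 120916853, minus strand), had 47.1 and 46.7 CPM in TOXFL-positive libraries, against 54.2 and 50.1 CPM in TOXFL-negative libraries. TOXdeltaN-positive cells had 48.3 and 47.2 CPM, against 50.4 and 51.1 CPM in TOXdeltaN-negative cells. Positive libraries lay below negative ones throughout, by a mean of 7.96%, and Bid was not called (average log2 -0.12, adjusted p = 0.318, and 0.236 in the blocked fit). Bcl2l13 and Gm17812 on the opposite strand and Gm44260 on the same strand overlap Bid, so part of its counts may be theirs.

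Bad encodes a BH3-only protein that growth factor signals silence by phosphorylation (ENSMUSG00000024959.14, chromosome 19, 6941861 to 6951899, plus strand). It had 30.3 and 32.4 CPM in TOXFL-positive libraries, against 24.9 and 27.96 CPM in TOXFL-negative libraries. In TOXdeltaN-positive libraries it had 29.3 and 33.7 CPM, against 30.1 and 29.9 CPM in TOXdeltaN-negative libraries. Groups were apart with TOXFL and overlapped with TOXdeltaN, and Bad was not called (average log2 0.16, adjusted p = 0.292, and 0.176 with the block). Its sign with TOXdeltaN changed under the length correction. Gpr137 overlaps Bad on the opposite strand.

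Pmaip1 encodes NOXA, the BH3-only partner that targets MCL1 (ENSMUSG00000024521.8). It had 44.2 and 39.8 CPM in TOXFL-positive libraries, against 35.2 and 34.8 CPM in TOXFL-negative libraries. The TOXdeltaN-positive libraries held 36.8 and 39.6 CPM, against 37.2 and 32.9 CPM in TOXdeltaN-negative libraries. The TOXFL groups were apart and the TOXdeltaN groups overlapped. Pmaip1 was not called (average log2 0.19, SE 0.0776, adjusted p = 0.188, and 0.11 in the blocked fit).

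Positive and negative libraries did not overlap for 7 of 10 members with TOXFL, against 50.4% of tested genes with 2 libraries a group. Of these, 3 were higher, against 24.9% of genes, and 4 lower, against 25.5%. With TOXdeltaN this was so for 4 of 10, against 42%. Over all 8 libraries it was so for 4, Bcl2l1 higher and Mcl1, Bcl2l11 and Bid lower, against 16.3% of tested genes, 8.22% higher and 8.08% lower.

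The next question was whether the members differed between the constructs. No member was called in the difference of the effects, TOXFL minus TOXdeltaN, by edgeR with or without the block, by DESeq2 or by limma-voom. In edgeR, an unadjusted p under 0.05 was found for 0 members without the block and 1 with it, Bak1 (log2 -1.12, SE 0.42, adjusted p = 0.989), against 2.39% and 3.71% of tested genes. Over all genes, 0% were called by edgeR and 0.0525% by DESeq2. For Bcl2l11 the difference was -0.02 with a 95% interval of -0.33 to 0.28. For Bak1 it was -1.05, from -2.15 to 0.04. The intervals of the others all held 0, and they were widest for Bcl2a1d, -1.40 to 1.31. Set directly beside each other, TOXFL-positive and TOXdeltaN-positive cells had 0 of 10 members called by edgeR, DESeq2 (0.113% of all genes) and limma-voom (0%), and 0.0075% of all genes called in the blocked fit. Bak1 had an unadjusted p of 0.0098 there (log2 -1.14, adjusted p = 0.822), against 5.76% of tested genes. In TOXFL-negative against TOXdeltaN-negative cells edgeR called 0 members, as did DESeq2 (0.06% of all genes) and limma-voom (0%), and none had an unadjusted p under 0.05, against 2.46% of tested genes. In the blocked edgeR fit of that comparison Bcl2 and Bcl2a1b were under 0.05 unadjusted, with adjusted p = 0.999 for both, against 4.1% of tested genes.

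Ratios of members within a library do not depend on how the library was scaled. They were not corrected for gene length. Exon lengths are 8.03 kilobases for Bcl2l11, 3.42 for Mcl1, 9.16 for Bcl2 and 4.59 for Bcl2l1. The log2 ratio of Bcl2l11 to Mcl1 was -0.40 and -0.46 in TOXFL-positive libraries, against -0.09 and -0.24 in TOXFL-negative libraries. In TOXdeltaN-positive libraries it was -0.42 and -0.49, against -0.27 and -0.28 in TOXdeltaN-negative libraries. All 4 positive libraries lay below all 4 negative ones, with an average difference of -0.22, and -0.26 to -0.19 with any library left out. The ratio of Bcl2l11 to Bcl2 differed by -0.19 on the log2 scale, from -0.28 to -0.10 with a library left out, and its values overlapped between the TOXFL groups. The ratio of Mcl1 to Bcl2l1 differed by -0.38, from -0.42 to -0.33. It was 2.73 and 2.6 in TOXFL-positive libraries, against 3.07 and 3.09 in TOXFL-negative libraries. In TOXdeltaN-positive libraries it was 2.61 and 2.58, against 3.02 and 2.85 in TOXdeltaN-negative libraries. The members of these ratios were chosen with earlier results known, so no test is given.

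Beyond the members, genes of 7 pathway lists were described. Among the 16 other BCL2 family genes, 12 were tested. Their median log2 fold change in the average was 0.13, against -0.00052 over all tested genes. With the length correction it was 0.075, against -0.0016. Without the block 0 were called (edgeR), with 3 at an unadjusted p under 0.05, against 21.9% of all genes. The blocked fit called 2 higher, against 6.04% of all genes, and 1 lower, against 6.69%. With the length correction it called 1 higher and 1 lower, where 12.1% of all genes were called. Bmf, a BH3-only gene, stood at 5.14 and 2.29 CPM in TOXFL-positive libraries, against 8.50 and 10.2 CPM in TOXFL-negative libraries. TOXdeltaN-positive cells had 6.84 and 6.56 CPM, against 7.43 and 9.74 CPM in TOXdeltaN-negative cells. Positive libraries were below negative ones throughout, and Bmf fell with TOXFL in the blocked fit (log2 -1.35, SE 0.318, adjusted p = 0.0494), but not without the block (-1.33, adjusted p = 0.154). Like that of Bak1, its value leaned on TOXFL-positive replicate 2. Without that library it was -0.75 in the blocked fit (adjusted p = 0.223), and the call held without TOXFL-positive replicate 1 or either TOXdeltaN-positive library, 3 of 8 omissions. Bbc3, which encodes the BH3-only protein PUMA, was not called, with a log2 fold change of 0.17 with TOXFL (adjusted p = 0.741) and 0.11 with TOXdeltaN (adjusted p = 0.815). Bcl2l2, which encodes the survival protein BCL-W, had 0.345 to 2.24 CPM, and its sign changed with the setting.

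Upstream of the BH3-only genes, Foxo3, which encodes a FOXO transcription factor, stood at 6.02 and 5.62 CPM in TOXFL-positive libraries, against 10.3 and 13.1 CPM in TOXFL-negative libraries. In TOXdeltaN-positive libraries it stood at 8.13 and 9.79 CPM, against 11.7 and 10.6 CPM in TOXdeltaN-negative libraries. Each positive library was below each negative one, with the wider gap with TOXFL. Foxo3 fell in the average (log2 -0.66, SE 0.129, adjusted p = 0.0357, and 0.00863 in the blocked fit) and with TOXFL in the blocked fit (log2 -1.01, adjusted p = 0.0153). The unblocked average call held in 2 of 8 omissions, those of TOXdeltaN-positive replicates 1 and 2, and the rest reached an adjusted p of 0.178. It was lost after the length correction (log2 -0.60, adjusted p = 0.0541). Foxo1, also listed here, was far more abundant, at 177 to 217 CPM in positive and 212 to 245 CPM in negative libraries. These ranges overlapped, and its mean changed by -13.3%. Within each construct its positive libraries lay below its negative ones, where 50.4% of tested genes did not overlap with TOXFL and 42% with TOXdeltaN. This list of 11 genes holds factors of BH3-only genes and enzymes that turn over MCL1 and BIM. In the average 1 of them was called lower, against 1.08% of all genes, and 0 higher. The blocked fit called 1 higher and 3 lower in the average, against 6.04% and 6.69% of all genes. With the length correction these were 1 and 1, where 12.1% of all genes were called. Without that correction the blocked fit also called Huwe1, a ubiquitin ligase that marks MCL1 for destruction, lower with TOXFL (log2 -0.49, adjusted p = 0.0428). With the length correction in the blocked fit Huwe1 was not called (log2 -0.30, adjusted p = 0.131), and the call of Huwe1 held only without either TOXdeltaN-positive library. The TOXFL call of Foxo3 held in the 4 omissions of TOXdeltaN libraries and in none of the TOXFL libraries.

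Among the 7 inhibitors of apoptosis and their antagonists, Birc5, which encodes survivin, a protein that also serves in cell division, was the clearest. Its level was 301 and 300.2 CPM in TOXFL-positive libraries, against 201 and 224 CPM in TOXFL-negative libraries. In TOXdeltaN-positive libraries it was 308 and 329 CPM, against 219 and 224 CPM in TOXdeltaN-negative libraries. Every positive library lay well above every negative one, and Birc5 rose in the average (log2 0.51, SE 0.0637, adjusted p = 0.0155). The call held in 4 of 8 omissions without the block, and in 8 of 8 with it. Without the block it was lost without TOXFL-positive replicate 2 (adjusted p = 0.0792), TOXFL-negative replicate 1 (0.118) and TOXdeltaN-negative replicates 1 and 2 (0.125 and 0.0732). With single constructs Birc5 was called in the blocked fit (TOXFL log2 0.50, adjusted p = 0.0116, TOXdeltaN log2 0.52, adjusted p = 0.0167), held in 3 of 8 omissions for TOXFL and 4 of 8 for TOXdeltaN. Both were lost without either negative library of their own construct. Birc6, the gene of a very large inhibitor of apoptosis, fell with TOXFL in the blocked fit (log2 -0.54, adjusted p = 0.0138, and log2 -0.33, adjusted p = 0.0292, with the length correction). Without the length correction that call held only in omissions of TOXdeltaN libraries, which are not compared there. The TOXFL call was lost in every omission of a TOXFL library. Over both constructs, Birc6 stood at 103 to 137 CPM in positive and 146 to 204 CPM in negative libraries. All 4 positive libraries thus lay below all 4 negative ones, as for 8.08% of tested genes. Its blocked average log2 fold change was -0.49 to -0.39 with 1 library left out. These values were not corrected for length, and Birc6 has 25.8 kilobases of exon. The blocked average of this list had 2 called higher and 1 lower, against 6.04% and 6.69% of all genes.

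In the other 4 lists 0 genes were called without the block in the average by edgeR. In the blocked average the lists had few calls. Of 11 apoptosome and caspase genes 1 was higher and 1 lower, of 8 death receptor genes 1 and 1, of 12 survival cytokine receptor genes 0 and 2, and of 6 mitochondrial partners 0 and 0. With the length correction in that fit these became 1 and 0 apoptosome and caspase genes, 0 and 0 death receptor genes, 0 and 2 cytokine receptor genes and 1 and 0 mitochondrial partners. At unadjusted p under 0.05 the unblocked average held 2, 2, 2 and 1 of these genes in the same order, against 21.9% of all genes. The lists' median log2 fold changes were -0.02, 0.12, -0.04 and 0.08, against -0.00052 for all tested genes. With the length correction, without the block, the apoptosome and caspase, death receptor and cytokine receptor lists had -0.03, 0.07 and -0.02, against -0.0016. Over all tested genes the blocked average had 12.7% called, and 12.1% with the length correction.

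**Figure D5:**
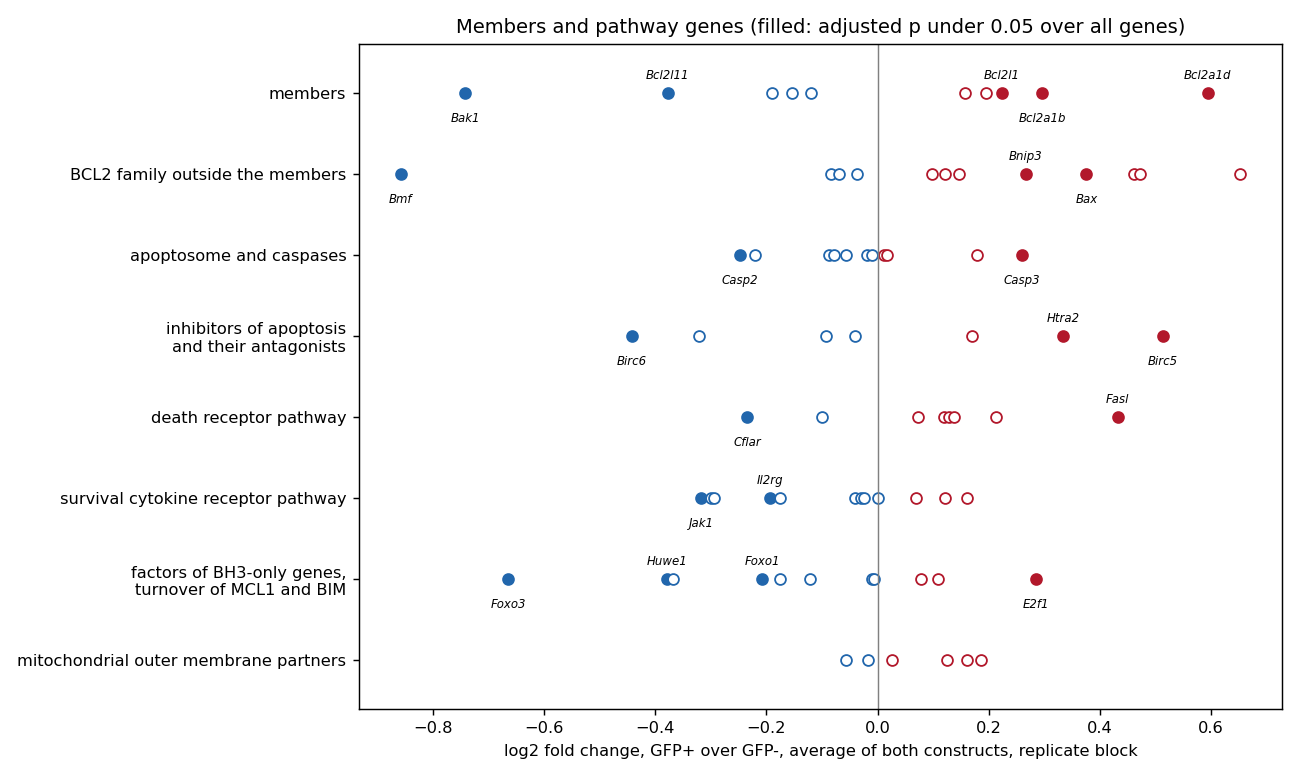
Average log2 fold change, GFP-positive over GFP-negative, in the blocked fit, for the members and for 7 pathway lists, with 1 point per gene; filled points have an adjusted p under 0.05 and carry their symbol. Foxo3 and Bmf are the lowest labelled points outside the members, at -0.66 and -0.86, and Birc5 at 0.51 is among the highest.

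Genes whose levels most resembled those of a member over the 8 libraries were found by the root mean square difference of standardised log2 CPM, among 9054 genes with a mean over 8 CPM. For Bcl2l11 these were Gm2a (0.126), 9930111J21Rik2 (0.131) and Gramd3 (0.137). Bcl2 was closest to Arap2 (0.239), Eme2 (0.246) and Rhoh (0.265). Mcl1 was closest to Wbp2 (0.207), Agtrap (0.222) and Arhgap39 (0.231). A smaller value means a closer pattern, and these likenesses are descriptions without a test.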

How the data were processed

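RNA of 4 groups with 2 libraries each was sequenced from 8 ng of input, per the labels' protocols. Reads were demultiplexed with bcl2fastq 2.20, trimmed with cutadapt, aligned to GRCm38 with STAR 2.6.1 and quantified with RSEM 1.2.28, per the submitters' processing notes. The annotation release is not given in the sources used here. The values are the authors' expected counts per gene, deposited as whole numbers. How they became whole is not stated. Spike-in rows, all at 0, were left out, which kept 31815 of 31907 rows. Of these, 31748 identifiers matched GENCODE M21, 31173 with their version.

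Counts were tested in R 4.3.3 with edgeR 4.0.16 (filterByExpr, TMM, quasi-likelihood test, Benjamini-Hochberg adjustment over 13329 genes). The biological coefficient of variation was 0.132, and 0.0958 with the replicate number as a block. Alternatives were DESeq2 1.42.0, limma 3.58.1 (voom with quality weights), other scalings, no filter, summed Bcl2a1 copies, the groups compared alone, the block and each library left out. A length correction and replicate 2 against replicate 1 were added after seeing the data. The fits were also run on simulated counts with a spread common to all genes. The changes put in were larger than those of most members, so that run gives no support to the calls here.

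Libraries of the same replicate number deviated together, with correlations of 0.244 to 0.312 over 6 pairs of groups. This pairing comes from the data, since no label explains the number, and 1 axis aligned with the numbers could give the same signs.

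The members, lists and markers were chosen with earlier results of these data known. The text names all members, the list genes called in the fits of TOXFL or TOXdeltaN (at most the 4 largest per list), and Bax, Bcl2a1a, Bbc3, Bmf and Bcl2l2. Foxo1 is named in addition, beside Foxo3. Total counts were 25059112 to 31240067 per library.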

Additional observations from a re-analysis of the deposited data

How the results depend on the processing

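Of 2476 values recomputed under another setting, 100 had the opposite sign, and 0 of these were called. Without a filter on low counts, 3 members were called with TOXFL, 2 with TOXdeltaN, 4 in the average and 1 between the positive groups, while the calls over all genes were 678, 516, 1665 and 116 in the same order. DESeq2 called 2 with TOXFL and 2 in the average, and limma-voom called 1 with TOXFL. The replicate block called 2 with TOXFL, 1 with TOXdeltaN and 5 in the average. With the length correction as well it called 3, 0 and 6, while over all genes 580, 284 and 1615 were called. Over all genes, the calls in the average were 323 without the block and 1697 with the replicate block, with TOXFL 6 and 464, and with TOXdeltaN 4 and 220. Leaving out each library in turn, without and with the block, gave 0 to 6 members called with TOXFL, 0 to 3 with TOXdeltaN, 0 to 7 in the average and 0 to 1 between the positive groups. Over all genes the omissions without the block gave 0 to 122 calls with TOXFL, 0 to 1571 with TOXdeltaN, 5 to 2504 in the average and 0 to 704 between the positive groups. With the block they gave 30 to 1772, 0 to 2650, 312 to 3681 and 0 to 1934 in the same order, so the shares of all genes called, given beside the members, move with single libraries. The lone library left in a group is assumed to vary like the other groups. Signs turned for Bcl2l2 with TOXFL (total counts 0.0028, block 0.054, block with length correction 0.053) and in the average (limma-voom -0.14). They turned for Bad with TOXdeltaN (length correction -0.015, with block -0.017) and between the positive groups (total counts 0.017, no filter 0.0038, limma-voom 0.0012, length correction 0.052, with block 0.052). They also turned for Bcl2a1d in the difference of the effects (limma-voom 0.044, block 0.039, length correction 0.11, with block 0.17), Bcl2l11 between the positive groups (length correction -0.0011, with block -0.0022) and Pmaip1 between the negative groups (total counts 0.0075, limma-voom 0.00092, block with length correction 0.0022). Log2 fold changes whose sign turned in an omission ranged as follows. With TOXFL these were Bbc3 -0.025 to 0.33 and Bcl2l2 -1.73 to 1.16. With TOXdeltaN these were Bcl2a1b -0.17 to 0.60, Bcl2a1d -0.067 to 1.18, Bak1 -0.47 to 0.092, Bad -0.036 to 0.17, Bbc3 -0.10 to 0.36 and Bcl2l2 -0.67 to 0.72. In the average these were Bcl2l2 -0.82 to 0.62. In the difference of the effects these were Bcl2 -0.32 to 0.12, Mcl1 -0.011 to 0.14, Bcl2l11 -0.11 to 0.062, Bcl2a1b -0.26 to 0.51 and Bcl2a1d -0.64 to 0.60. Between the positive groups these were Bcl2l1 -0.11 to 0.047, Mcl1 -0.018 to 0.10, Bcl2l11 -0.023 to 0.15, Bcl2a1b -0.54 to 0.22, Bcl2a1d -0.73 to 0.37 and Bad -0.10 to 0.10. Between the negative groups these were Mcl1 -0.10 to 0.051, Bcl2a1b -0.57 to 0.043, Bcl2a1d -0.81 to 0.36, Bak1 -0.31 to 0.16, Bid -0.020 to 0.094 and Pmaip1 -0.089 to 0.088. The cause was not tested. Summing the Bcl2a1 copies gives no value for a single copy, and the average and the difference of the effects need all groups. Bak1, Bmf and Bcl2l2, under 11 CPM, are the values most limited by depth.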
